A study of Mus musculus with 8 samples.

Results

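Ptpn14 and 9 genes of the Hippo pathway (Yap1, Wwtr1, Tead1, Tead2, Tead4, Lats1, Lats2, Amotl2 and Nf2) were followed in mouse embryonic stem cells (ESCs) after auxin depletion of ZZZ3 or YEATS2, subunits of the ATAC histone acetyltransferase coactivator complex. These are 10 of the 55401 genes counted in each library, and all of them were among the 17532 genes with enough reads to be tested. Ptpn14 was selected on its rise in read counts in both depletions, so its difference from control is described here with no test, whereas the other 9 genes were taken for their place in the pathway and were tested. The 8 libraries comprised 2 of Control, 3 of Zzz3_auxin and 3 of Yeats2_auxin. The auxin cells received 500 µM auxin for 24 h, which degrades a protein carrying an auxin-inducible degron (AID), with the F-box protein Tir1 kept in the cells by G418 selection. All cells were cultured with serum, leukaemia inhibitory factor and both inhibitors of the 2i medium. The labels do not say which line the controls were or whether they received vehicle, and they do not say whether each tagged line was a single clone. The study's methods describe independent cultures for its nascent RNA experiments and state the same conditions for this RNA-seq, but the labels do not say that the replicates here came from separate cultures, so the p-values measure the spread between these libraries, which may be technical.

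The Hippo pathway is a kinase cascade that restrains growth. The kinases MST1 and MST2 activate LATS1 and LATS2, which phosphorylate the coactivators YAP (gene Yap1) and TAZ (gene Wwtr1) and keep them out of the nucleus. Unphosphorylated YAP and TAZ bind the TEAD transcription factors, which carry them to DNA. NF2 recruits LATS kinases to the membrane, and angiomotins such as AMOTL2 hold YAP at cell junctions. PTPN14 is a non-receptor tyrosine phosphatase that binds YAP and retains it in the cytoplasm, and Ptpn14 is also known as a target gene of p53. In the early mouse embryo this pathway separates trophectoderm, where TEAD4 and YAP are active, from the inner cell mass.

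Since TEAD factors bind the letters GGAATG, the RefSeq promoters of the genes (build GRCm38.p6, 250 bases before to 50 after the start site) were searched for GGAATG and, for the other strand, CATTCC. Promoters were on hand for 8 of the 10 genes, Tead1 and Tead4 being the others, and 5 of these 8 held a match in at least 1 window. Across the table, 16.6% of all 27025 genes held the motif in any window, and 14.7% of all 32851 windows did. The whole Ptpn14 promoter, chr1:189728018-189728317 on the plus strand, is shown first because Ptpn14 is the gene that stands out below, with the match in capitals. It was 78.3% G and C, and the match began 146 bases before the start site:

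Ptpn14: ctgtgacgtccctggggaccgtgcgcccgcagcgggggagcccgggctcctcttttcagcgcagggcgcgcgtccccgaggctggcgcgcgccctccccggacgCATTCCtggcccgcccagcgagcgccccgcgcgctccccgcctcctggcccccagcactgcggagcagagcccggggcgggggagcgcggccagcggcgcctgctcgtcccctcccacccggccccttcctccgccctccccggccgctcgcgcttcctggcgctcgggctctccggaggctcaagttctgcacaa

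The other matches are shown with 20 bases on either side, from chr9:8004712-8004757 (minus strand, Yap1), chr3:57576021-57576066 (minus strand, Wwtr1), chr14:57746094-57746139 (minus strand, Lats2) and chr9:102717719-102717764 (plus strand, Amotl2), again with the motif in capitals:

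Yap1: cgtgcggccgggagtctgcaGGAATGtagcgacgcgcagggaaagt
Wwtr1: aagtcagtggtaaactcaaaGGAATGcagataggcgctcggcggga
Lats2: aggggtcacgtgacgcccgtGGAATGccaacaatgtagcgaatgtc
Amotl2: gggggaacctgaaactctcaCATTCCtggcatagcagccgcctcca

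The Yap1 match began 141 bases before the start site, the Amotl2 match 65 bases before it, and the Lats2 match lay just inside the transcript. The Wwtr1 match lay upstream of both annotated start sites of the gene. No match was found in the windows of Tead2, Lats1 and Nf2. A match is only a run of letters, and no binding was measured.

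Levels are given as CPM, read counts relative to all assigned reads, after scaling for library composition (TMM). The libraries held between 14315120 and 27884704 assigned reads, the shallowest being Zzz3_auxin replicate 3. Zzz3 mRNA lay between 77.5 and 112 CPM in the Zzz3_auxin libraries against 181.9 and 186.5 CPM in the controls. Yeats2 mRNA ranged from 43.7 to 103 CPM in the Yeats2_auxin libraries against 90.9 and 95.8 CPM in the controls, and the transcript does not show how far a degron removed the protein. The 7 ESC markers summed to between 4176 and 4921 CPM over all libraries, against at most 54.3 CPM for 8 trophectoderm markers, 7.21 CPM for 6 primitive endoderm markers and 12.4 CPM for 6 fibroblast markers. Within the ESC sum, Pou5f1 lay above both controls in all depleted libraries (log2 fold change 0.62 after ZZZ3 and 0.55 after YEATS2 depletion). Nanog lay below them (-0.22 and -0.28), and each other ESC marker overlapped control in at least 1 depletion. The edgeR adjusted p-values of Pou5f1 and Nanog were 0.106 or more. In bulk RNA, fewer cells of a type and less RNA per cell cannot be told apart. Library composition by G and C content varied when levels were taken relative to each gene's mean over the 8 libraries. On that scale, genes of high G and C content stood 0.59 (log2) below those of low content in Control replicate 1. In Zzz3_auxin replicate 3 they stood 0.43 above them.

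Ptpn14 was 1.91 times as high as in control after ZZZ3 depletion and 2.12 times as high after YEATS2 depletion. Its gene (ENSMUSG00000026604) spans chr1:189728268-189876695 on the plus strand of GRCm38 (mm10), the build of all gene positions given here. Ptpn14 stood at 50.4 and 47.5 CPM in the controls, at 95.5, 107 and 78.0 CPM after ZZZ3 depletion, and at 100.2, 101 and 110 CPM after YEATS2 depletion. All 6 depleted libraries lay above both controls, with no overlap, and the lowest of the 6 was Zzz3_auxin replicate 3. The group means were 49.0 ± 2.04 CPM (SD, n = 2) in control, 93.6 ± 14.8 CPM (SD, n = 3) in Zzz3_auxin and 103.8 ± 5.28 CPM (SD, n = 3) in Yeats2_auxin. The log2 fold change was 0.94 (SE 0.14, 95% interval 0.62 to 1.25) after ZZZ3 depletion. After YEATS2 depletion the log2 fold change was 1.08 (SE 0.14, 95% interval 0.77 to 1.40). Both comparisons use the same controls. Since Ptpn14 was picked for its rise in these libraries, its intervals against control do not test that rise. Between the depletions the 6 libraries overlapped, and the Yeats2_auxin level was 0.15 (log2) above that of Zzz3_auxin, with a 95% interval of -0.12 to 0.42. Leaving out Zzz3_auxin replicate 3 reduced that difference to 0.03. The values rest on 1022 to 2927 reads per library. The antisense gene Gm26574 overlaps 1.32% of the Ptpn14 exon bases and itself held between 1 and 7 reads per library.

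**Figure D1:**
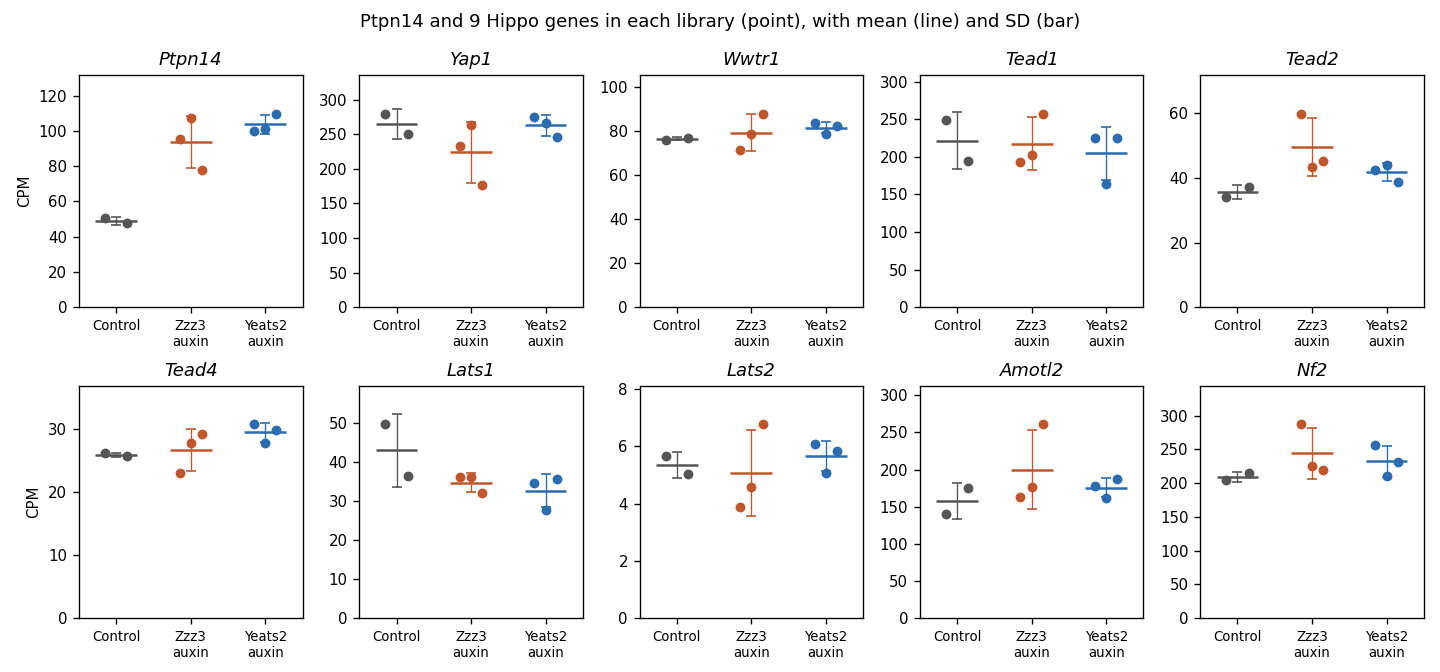
CPM (vertical axes, from 0, a different scale in each panel) of Ptpn14 and 9 Hippo genes in each library, one panel per gene. Points are libraries, horizontal lines group means and vertical bars the SD (n = 2 for Control, n = 3 for each depletion). Ptpn14, picked for its rise, lies at 47.5 to 50.4 CPM in Control and at 78.0 to 110 CPM in the depleted libraries. Of the other 9 genes, 6 overlap control in Zzz3_auxin and 5 in Yeats2_auxin. Over all genes tested, 35.8% and 40.3% do not overlap control there, so these counts are near the background.

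None of the other 9 genes passed the threshold in either depletion. The threshold was an adjusted p of 0.05 in edgeR's quasi-likelihood test with Benjamini-Hochberg adjustment over all 17532 genes. For ZZZ3 depletion, 0 of 9 passed, beside 0.753% of all genes tested, and the smallest adjusted p was 0.125 (Tead2). For YEATS2 depletion, 0 of 9 passed, beside 0.445% of all genes, and the smallest adjusted p was 0.296 (Lats1). At an unadjusted p of 0.05 the edgeR count was 1 of 9 in each depletion, beside 21.7% of all genes after ZZZ3 depletion and 14.6% after YEATS2 depletion. DESeq2 also called 0 of 9 in each, beside 5.74% and 2.18% of all genes. The log2 fold changes of the 9 genes lay between -0.31 and 0.48 after ZZZ3 depletion (median 0.04, against 0.01 over all genes) and between -0.40 and 0.23 after YEATS2 depletion (median 0.09, against -0.01 over all genes). For all 9 genes the 95% interval of the fold change lay within a factor of 2 of control in both depletions, with outer bounds of 0.63 and 1.77 after ZZZ3 depletion and 0.59 and 1.53 after YEATS2 depletion.

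**Figure D2:**
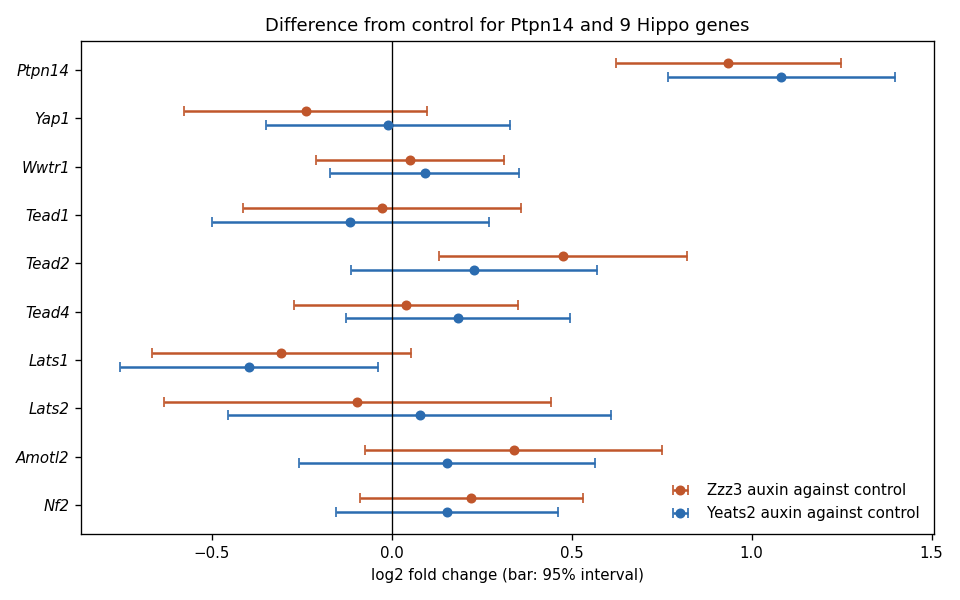
Log2 fold change against control (horizontal axis) with its 95% interval (bar) for Ptpn14 and 9 Hippo genes, in Zzz3 auxin (orange) and Yeats2 auxin (blue). Ptpn14 stands at 0.94 and 1.08, and the intervals of the other 9 genes stay between -0.75 and 0.82. Ptpn14 was picked for this difference.

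Yap1 (chr9:7931999-8004596, minus strand), the main effector, was among the most abundant of the 10. It read 279.8 and 249.6 CPM in the controls, 232, 264 and 176 CPM after ZZZ3 depletion, and 275, 267 and 246 CPM after YEATS2 depletion. The groups overlapped, and the low value was again in Zzz3_auxin replicate 3. The log2 fold change of the gene was -0.24 (SE 0.15, edgeR adjusted p = 0.393) after ZZZ3 depletion and -0.01 (SE 0.15, edgeR adjusted p = 0.981) after YEATS2 depletion. Without Zzz3_auxin replicate 3 the first value was -0.08.

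Wwtr1 (chr3:57455649-57575910, minus strand), which encodes TAZ, had the smallest SE of the 9 in both depletions (0.12). It read 76.3 and 77.2 CPM in the controls, 71.4, 79.0 and 88.1 CPM in Zzz3_auxin, and 83.9, 78.9 and 82.4 CPM in Yeats2_auxin. The log2 fold changes were 0.05 (95% interval -0.21 to 0.31) and 0.09 (95% interval -0.17 to 0.35). The 3 Yeats2_auxin libraries lay just above both controls, but the interval of the difference included 0.

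Tead1 (chr7:112679318-112906807, plus strand), the most abundant TEAD gene by reads, read 248 and 195 CPM in the controls, 193, 203 and 258 CPM in Zzz3_auxin, and 225, 164 and 226 CPM in Yeats2_auxin. Control replicate 1 and Zzz3_auxin replicate 3 were the high libraries, and the groups overlapped throughout. The log2 fold changes were -0.03 (95% interval -0.41 to 0.36) after ZZZ3 depletion and -0.11 (95% interval -0.50 to 0.27) after YEATS2 depletion.

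Tead2 (chr7:45215753-45233644, plus strand), a TEAD gene expressed in early embryos, came nearest to the threshold. It read 34.0 and 37.1 CPM in the controls, 59.9, 43.3 and 45.3 CPM in Zzz3_auxin, and 42.5, 44.0 and 38.6 CPM in Yeats2_auxin. All 6 depleted libraries lay above both controls, and Zzz3_auxin replicate 1 was the highest. Its log2 fold change was 0.48 (SE 0.16, 95% interval 0.13 to 0.82, edgeR adjusted p = 0.125) after ZZZ3 depletion and 0.23 (SE 0.16, edgeR adjusted p = 0.523) after YEATS2 depletion. The Tead2 transcript is 57.9% G and C, and with a correction for G and C content and length the values became 0.13 and -0.01.

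Tead4 (chr6:128224288-128300823, minus strand), the TEAD gene that directs trophectoderm, read 26.1 and 25.6 CPM in the controls, 22.9, 27.8 and 29.2 CPM in Zzz3_auxin, and 30.7, 27.7 and 29.8 CPM in Yeats2_auxin. The log2 fold change of the gene was 0.04 (95% interval -0.27 to 0.35) after ZZZ3 depletion and 0.19 (95% interval -0.13 to 0.50) after YEATS2 depletion. The Yeats2_auxin libraries did not overlap the controls, the Zzz3_auxin libraries did, and with the same correction both values fell below 0, to -0.31 and -0.05.

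Lats1 (chr10:7681214-7716460, plus strand), the more abundant LATS kinase gene, read 49.7 and 36.5 CPM in the controls, 36.1, 36.2 and 32.0 CPM in Zzz3_auxin, and 34.6, 27.8 and 35.7 CPM in Yeats2_auxin. All 6 depleted libraries lay below both controls, but the controls differed more from each other (49.7 against 36.5 CPM) than Control replicate 2 did from any depleted library. Its log2 fold change was -0.31 (SE 0.16, edgeR adjusted p = 0.3004) after ZZZ3 depletion and -0.40 (SE 0.16, edgeR adjusted p = 0.296) after YEATS2 depletion. Without Control replicate 1 these were -0.05 and -0.14.

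Lats2 (chr14:57689662-57758388, minus strand) was the least abundant of the 10, at 5.67 and 5.04 CPM in the controls, 3.88, 4.58 and 6.76 CPM in Zzz3_auxin, and 6.07, 5.07 and 5.82 CPM in Yeats2_auxin. These values rest on 101 to 157 reads per library, and the groups overlapped in both comparisons. The log2 fold changes were -0.10 (95% interval -0.63 to 0.44) and 0.08 (95% interval -0.45 to 0.61), the widest intervals of the 9 in either depletion. The predicted gene Gm49361 overlaps 42.39% of the Lats2 exon bases on the same strand. It was among the genes the authors counted, so reads in the shared bases would be left unassigned as ambiguous. Gm49361 was itself at 0 reads in all 8 libraries, and the Lats2 level may be understated.

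Amotl2 (chr9:102716672-102733418, plus strand), which encodes a junction scaffold and is itself widely used as a YAP target gene, read 140.7 and 175 CPM in the controls, 163, 176 and 261 CPM in Zzz3_auxin, and 178, 162 and 187 CPM in Yeats2_auxin. The groups overlapped, and the high value was in Zzz3_auxin replicate 3. Against control the log2 fold change was 0.34 (SE 0.19, edgeR adjusted p = 0.320) after ZZZ3 depletion and 0.15 (SE 0.19, edgeR adjusted p = 0.742) after YEATS2 depletion. With the correction for G and C content and length these became 0.02 and -0.06.

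Nf2 (chr11:4765845-4849536, minus strand), the tumour suppressor upstream of the LATS kinases, read 204 and 215 CPM in the controls, 287, 225 and 219.8 CPM in Zzz3_auxin, and 256, 210.4 and 231 CPM in Yeats2_auxin. The Zzz3_auxin libraries lay above both controls, with replicate 1 the highest, and the Yeats2_auxin libraries overlapped them. Its values against control were 0.22 (95% interval -0.09 to 0.53) and 0.15 (95% interval -0.16 to 0.46) on the log2 scale.

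Counting libraries alone, 3 of the 9 genes did not overlap control after ZZZ3 depletion (Tead2 and Nf2 higher, Lats1 lower), beside 35.8% of all genes. After YEATS2 depletion 4 of the 9 did not (Tead2, Tead4 and Wwtr1 higher, Lats1 lower), beside 40.3% of all genes. With 9 genes these shares are near the backgrounds. Between the depletions, all 9 genes overlapped, beside 11.1% of all genes with no overlap. The direct test of Yeats2_auxin against Zzz3_auxin called 0 of 9, beside 0.0% of all genes, with adjusted p-values between 0.779 and 0.942 in edgeR and 0 of 9 at an unadjusted p of 0.05, beside 6.25% of all genes. The differences ran from -0.25 for Tead2 to 0.23 for Yap1 (log2), and their intervals from -0.55 to 0.65.

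Dividing CPM by the kilobases of all exons of a gene lets levels be compared between genes. In control, Nf2 (30.7 CPM per kilobase), Yap1 (28.6) and Amotl2 (25.1) were the highest, and each overlapped the next in the order across the control libraries. Tead1 (16.3) and Wwtr1 (16.1) followed and overlapped, then Tead2 (7.43) and Tead4 (7.19), which also overlapped. Lats1 (5.90), Ptpn14 (3.65) and Lats2 (0.77) came last, and none of them overlapped a neighbour in the order. The Lats2 level was divided by all its exon bases, including those shared with Gm49361, and may be understated. In both depletions Ptpn14 stood above Lats1, at 6.98 against 4.77 CPM per kilobase in Zzz3_auxin and 7.74 against 4.49 in Yeats2_auxin, moving from rank 9 to rank 8 of 10. The other shifts in order were between genes whose ranges overlapped in control.

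Within families, these per-kilobase levels gave the share of each paralog. Of the summed level of Ptpn14 and its paralog Ptpn21, Ptpn14 held 69.2% ± 1.77 (SD, n = 2) in control, 81.3% ± 1.08 (SD, n = 3) in Zzz3_auxin and 83.2% ± 1.40 (SD, n = 3) in Yeats2_auxin, with no overlap between control and either depletion. Ptpn21 itself read 11.8 to 14.01 CPM in control, 11.2 to 13.4 in Zzz3_auxin and 10.8 to 13.2 in Yeats2_auxin. Its log2 fold changes were -0.03 (95% interval -0.41 to 0.35) and -0.06 (95% interval -0.44 to 0.32). The Ptpn21 levels overlapped between the groups, so the shift in share restates the rise for which Ptpn14 was picked.

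For the effector pair the shares overlapped between all groups. Yap1 made up 62.6% to 65.4% of the Yap1 and Wwtr1 sum in control, 60.7% to 63.6% in Yeats2_auxin, and 50.8% to 63.3% in Zzz3_auxin, where replicate 3 gave the low value. Tead1 held 51.7% ± 5.08 (SD, n = 2) of the TEAD sum in control, Tead2 23.7% ± 3.18, Tead4 22.9% ± 1.37 and Tead3 1.62% ± 0.53. After depletion the share of Tead4 was 24.8% to 26.02% in Yeats2_auxin, above its 21.9% to 23.9% in control with no overlap, and 18.9% to 24.1% in Zzz3_auxin, which overlapped control. Tead2 held 25.3% to 37.1% in Zzz3_auxin and 24.1% to 31.1% in Yeats2_auxin, both overlapping its 21.5% to 25.99% in control. Tead1 held 46.5% ± 4.30 (SD, n = 3) in Zzz3_auxin and 46.2% ± 4.72 (SD, n = 3) in Yeats2_auxin, and these ranges overlapped control too. Lats1 held 88.3% ± 1.38 (SD, n = 2) of the LATS sum in control, 86.7% ± 4.24 (SD, n = 3) in Zzz3_auxin and 84.6% ± 0.74 (SD, n = 3) in Yeats2_auxin, which did not overlap control. If Lats2 is understated, these Lats1 shares are overstated. Amotl2 held 84.3% ± 1.66 (SD, n = 2) of the angiomotin sum in control, 81.4% ± 2.18 (SD, n = 3) in Zzz3_auxin and 80.8% ± 1.46 (SD, n = 3) in Yeats2_auxin, again without overlap in the last, while Amotl1 held 13.2% to 14.8% in control, 15.1% to 18.8% in Zzz3_auxin and 16.2% to 19.2% in Yeats2_auxin. With 2 controls against 3 libraries an exact permutation test cannot reach 0.05 for a share, so none is given. By level, 35.8% of all genes tested did not overlap control in Zzz3_auxin and 40.3% in Yeats2_auxin. The shares were made from levels without the correction for G and C content and length.

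**Figure D3:**
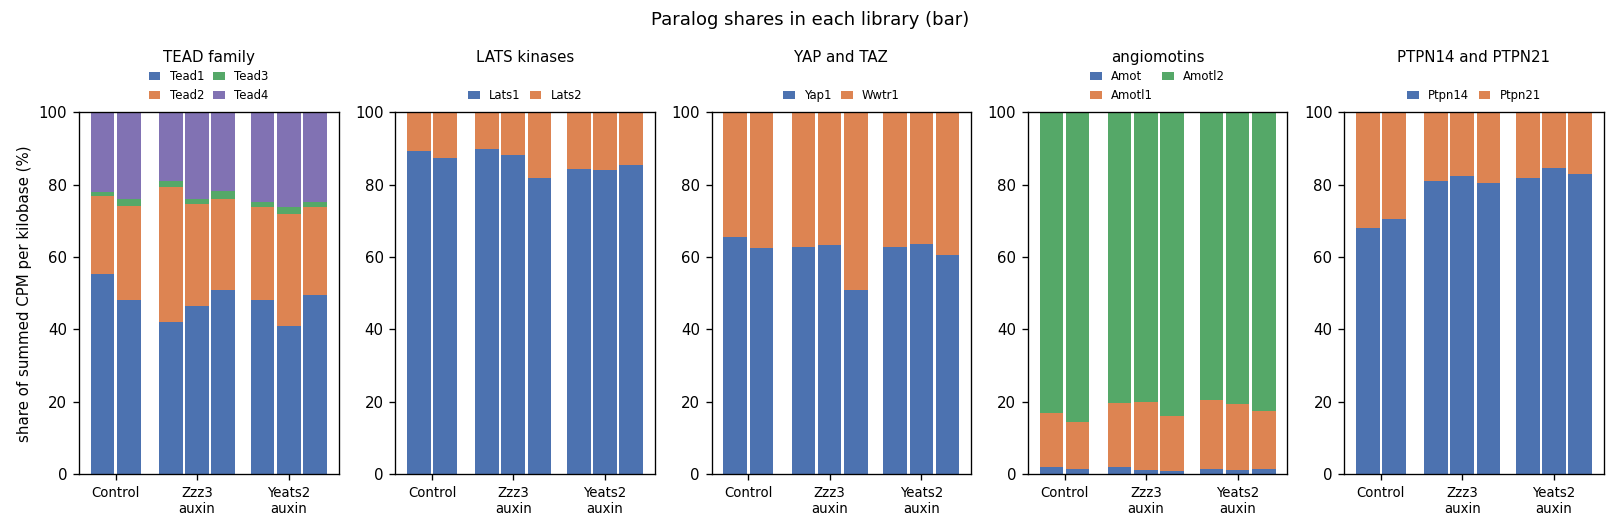
Share of each paralog in its family's summed CPM per kilobase (vertical axis, %), one stacked bar per library, for 5 families. Ptpn14, picked for its rise, takes 67.9% to 70.4% of the PTPN14 and PTPN21 sum in Control and 80.4% to 84.7% in the depleted libraries. Tead1, Lats1, Yap1 and Amotl2 are the largest part of their families in every library.

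A wider list of 68 further Hippo genes was set beside these, of which 59 had enough reads to be tested. After ZZZ3 depletion 0 were called higher and 1 lower, beside 0.753% of all genes tested. After YEATS2 depletion 0 of 59 were called in either direction, beside 0.445%, and 0 of 59 in the direct comparison of the depletions, beside 0.0%. The same shares stand beside the counts by role below. At an unadjusted p of 0.05 in edgeR, 16 of 59 passed after ZZZ3 depletion (11 higher, 5 lower), beside 21.7% of all genes, and 11 of 59 after YEATS2 depletion (7 higher, 4 lower), beside 14.6% of all genes. The median log2 fold change was 0.15 over the list and 0.01 over all genes after ZZZ3 depletion, and 0.04 and -0.01 after YEATS2 depletion. With DESeq2 in place of edgeR, 7 of 59 were called after ZZZ3 depletion, beside 5.74% of all genes, and 3 of 59 after YEATS2 depletion, beside 2.18%. On simulated data 12.8% to 13.1% of DESeq2 calls were false, against 6.35% to 9.09% of edgeR calls.

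The called gene was Mob4, part of the STRIPAK phosphatase complex that opposes the MST kinases. Mob4 read 113 and 105 CPM in the controls, 68.2, 73.3 and 72.3 CPM in Zzz3_auxin, and 79.0, 87.9 and 78.8 CPM in Yeats2_auxin. All 6 depleted libraries lay below both controls. The log2 fold change of the gene was -0.61 (SE 0.11, edgeR adjusted p = 0.0396) after ZZZ3 depletion and -0.41 (SE 0.11, edgeR adjusted p = 0.141) after YEATS2 depletion. The call was lost when either control or Zzz3_auxin replicate 1 was left out (adjusted p = 0.478, 0.0841 and 0.0959 in edgeR), when any 1 Yeats2_auxin library was left out (0.0644 to 0.0985), and with the correction for G and C content and length (-0.37, adjusted p = 0.14). Of the other 8 STRIPAK genes none was called, including the pair with the highest CPM, Ppp2r1a (log2 fold change 0.25 and 0.02) and Slmap (0.22 and 0.26).

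Among the kinases and their cofactors 0 of 17 were called in either depletion, with medians of 0.00 and -0.10. Taok1, an upstream kinase with the highest CPM of the list though not per kilobase, had log2 fold changes of -0.29 and -0.23, and Map4k4, a parallel kinase, of 0.35 and 0.17. Of the core components, Stk4 (encoding MST1) read 0.04 and 0.09, Stk3 (encoding MST2) -0.27 and -0.27, and the scaffold gene Sav1 -0.29 and -0.21, with edgeR adjusted p-values of 0.251 or more. Mob1b, encoding a cofactor of the LATS kinases, is named after its values were seen, as the lowest fold change of these 17 genes in both depletions. It read 85.0 and 68.1 CPM in the controls, 48.4, 58.9 and 51.5 CPM in Zzz3_auxin, and 61.0, 51.7 and 62.9 CPM in Yeats2_auxin, so all 6 depleted libraries lay below both controls. Its log2 fold change was -0.53 (SE 0.14, edgeR adjusted p = 0.0881) after ZZZ3 depletion and -0.39 (SE 0.14, edgeR adjusted p = 0.2504) after YEATS2 depletion, and the first passed in DESeq2 and in edgeR with no filter on low counts (adjusted p = 0.0359 and 0.0192). Without Control replicate 1 these were -0.35 and -0.20, and with the correction for G and C content and length -0.34 and -0.18.

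Among the scaffolds 0 of 9 were called. The most abundant, Ajuba, a LIM protein that binds LATS kinases, had log2 fold changes of 0.36 and 0.14, and Wwc2 of 0.11 and 0.32. Wwc1 and Amotl1 are named after their values were seen. Wwc1, encoding KIBRA, which works with PTPN14 on the LATS kinases, read 17.5 and 15.5 CPM in the controls, 26.4, 24.6 and 22.2 CPM in Zzz3_auxin, and 24.3, 26.3 and 24.2 CPM in Yeats2_auxin. Its log2 fold change was 0.57 (SE 0.14, edgeR adjusted p = 0.0774) after ZZZ3 depletion and 0.60 (SE 0.14, edgeR adjusted p = 0.109) after YEATS2 depletion, and the first became 0.25 with the correction for G and C content and length. Amotl1, an angiomotin gene, read 40.1 and 43.3 CPM in the controls, 57.1, 66.3 and 75.3 CPM in Zzz3_auxin, and 68.8, 58.7 and 58.6 CPM in Yeats2_auxin. The log2 fold change of the gene was 0.67 (SE 0.14, edgeR adjusted p = 0.0570) and 0.57 (SE 0.14, edgeR adjusted p = 0.124). For both genes all 6 depleted libraries lay above both controls, and DESeq2 placed both under its threshold in both depletions.

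The junction and polarity list had 6 of 9 genes with enough reads and 0 called. Its most abundant gene, Fat1, an atypical cadherin, read 674 and 660 CPM in the controls, 1142, 1024 and 966 CPM in Zzz3_auxin, and 986, 776 and 1029 CPM in Yeats2_auxin. Its log2 fold change was 0.65 (SE 0.14, edgeR adjusted p = 0.0570) after ZZZ3 depletion and 0.48 (SE 0.14, edgeR adjusted p = 0.161) after YEATS2 depletion. With the correction for G and C content and length the ZZZ3 value was 0.51 and passed (adjusted p = 0.0433). Fat1 also passed in DESeq2 after ZZZ3 depletion (adjusted p = 0.00306) and in edgeR with no filter on low counts in both depletions. Scrib, named after its values were seen, had log2 fold changes of 0.77 and 0.55 (edgeR adjusted p = 0.151 and 0.375). It passed with no filter in both depletions, although its Zzz3_auxin libraries overlapped control. Llgl1, a polarity gene, had values of 0.29 and 0.26.

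In the nucleus, the VGLL cofactors compete with YAP for TEAD. Of 5 listed nuclear genes 3 had enough reads and 0 were called, with Vgll3 at 0.20 and -0.39 and Vgll4 at 0.32 and 0.55 (log2 fold change).

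Genes widely used as YAP and TEAD targets in cancer cells had 15 of 19 members with enough reads and 0 called in either depletion. Their median log2 fold change was 0.27 after ZZZ3 depletion and 0.14 after YEATS2 depletion, with 11 of 15 above 0 in each, beside 51.1% and 48.9% of all genes above 0. Myof, the most abundant, had values of 0.21 and 0.29, and Dock5 of 0.17 and 0.01. The matricellular genes Ccn1 and Ccn2, and 5 targets with larger shifts after ZZZ3 depletion or shifts the other way, are named after their values were seen. Ccn1 read 7.20 and 13.0 CPM in the controls, 14.04, 18.8 and 16.2 CPM in Zzz3_auxin, and 19.2, 15.6 and 18.1 CPM in Yeats2_auxin, with log2 fold changes of 0.69 (edgeR adjusted p = 0.134) and 0.80 (edgeR adjusted p = 0.167). Without Control replicate 1, the lower control, these were 0.35 and 0.46. Ccn2 had values of 0.10 and -0.12 (edgeR adjusted p = 0.756 and 0.764).

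Of the other targets on the higher side, Arhgef17 had log2 fold changes of 0.90 after ZZZ3 depletion and 0.56 after YEATS2 depletion (edgeR adjusted p = 0.0729 and 0.263), and the correction for G and C content and length gave 0.49 and 0.32. Igfbp3, encoding a binding protein of insulin-like growth factors, had values of 0.88 and 0.22 (edgeR adjusted p = 0.0762 and 0.677), and Fjx1 of 0.87 and 0.31 (edgeR adjusted p = 0.109 and 0.619). For these 3 genes the Zzz3_auxin libraries lay above both controls, and in Yeats2_auxin those of Arhgef17 did. On the lower side, Nt5e, encoding the nucleotidase CD73, read 26.2 and 20.6 CPM in the controls, 7.41, 18.3 and 16.1 CPM in Zzz3_auxin, and 24.9, 23.3 and 26.1 CPM in Yeats2_auxin. Its values were -0.75 after ZZZ3 depletion, with no overlap, and 0.08 after YEATS2 depletion, with overlap (edgeR adjusted p = 0.171 and 0.919). F3, encoding tissue factor, was below both controls in all 6 depleted libraries, at 1.61 to 5.13 CPM against 5.71 and 6.41 CPM, with values of -0.69 and -0.70 (edgeR adjusted p = 0.3102 and 0.409). None of these targets passed in edgeR with the filter on low counts and all libraries. Without the filter Arhgef17, Igfbp3, Nt5e and Ccn1 passed after ZZZ3 depletion and Ccn1 after YEATS2 depletion, and without Zzz3_auxin replicate 2 Arhgef17 and Igfbp3 passed after ZZZ3 depletion. DESeq2 placed Arhgef17 and Igfbp3 under its threshold after ZZZ3 depletion and Ccn1 after YEATS2 depletion.

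**Figure D4:**
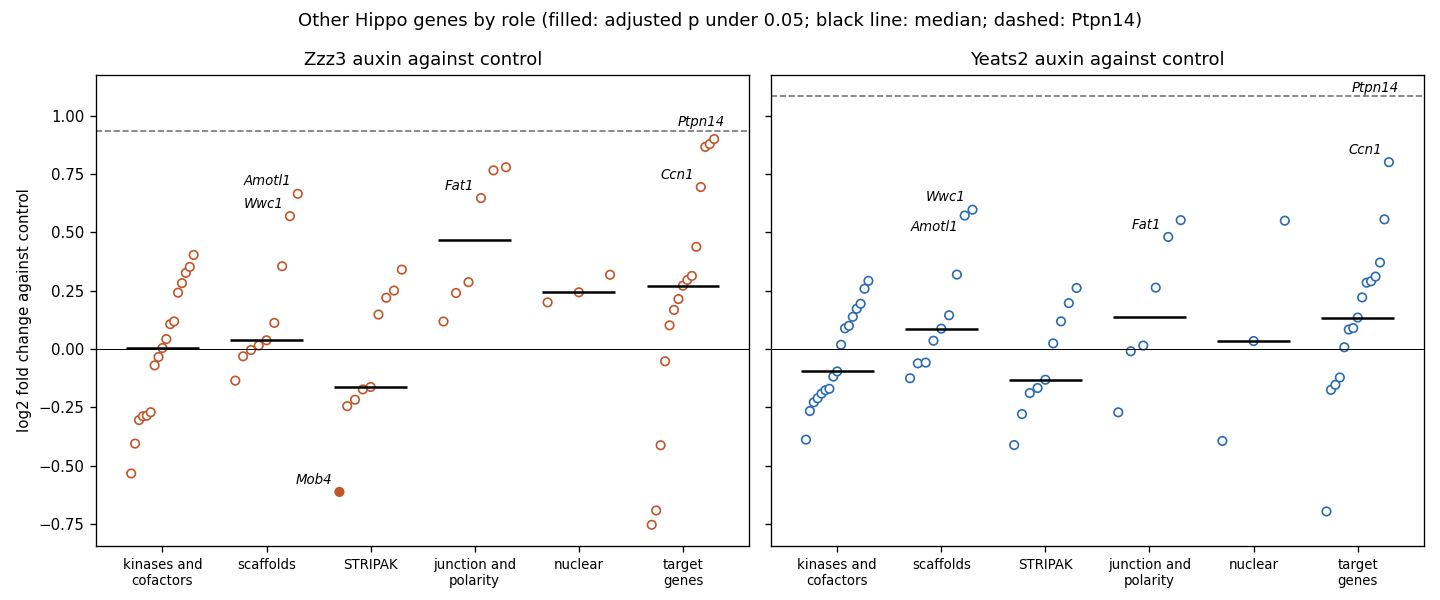
Log2 fold change against control (vertical axis) of the 59 further Hippo genes with enough reads, by role, for Zzz3 auxin (left) and Yeats2 auxin (right). Filled points passed an adjusted p of 0.05, short black lines are list medians and the dashed line is Ptpn14 (0.94 and 1.08). Mob4 (-0.61) is the one filled point, and every gene lies below the Ptpn14 line. Ptpn14 was picked for its rise in these comparisons, so its place above the other genes is no test.

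The genes whose pattern was most like that of Ptpn14 were sought among 9869 other protein-coding genes averaging 5 CPM or more, by Pearson's r of log2 CPM over the 8 libraries. As Ptpn14 was picked for a rise in both depletions, any gene higher in the same 6 libraries ranks high, and 109 genes had an r over 0.9. The 5 most alike were Fam81a (r = 0.997), Gpx3, a secreted glutathione peroxidase gene (r = 0.989), Mlana, a melanosome gene (r = 0.985), Mdm2 (r = 0.982) and Zbtb7c, a zinc finger gene (r = 0.979). Mdm2, encoding the ubiquitin ligase that degrades p53 and known as a p53 target, read 191 and 177 CPM in the controls, 307, 333 and 265 CPM in Zzz3_auxin, and 287, 287 and 316 CPM in Yeats2_auxin. Gpx3 and Zbtb7c averaged under 5 CPM in the controls (4.10 and 4.08 CPM, and 2.66 and 3.18 CPM) and entered the ranking only through the depleted libraries. With the minimum set on the controls alone, a choice made after seeing the data, 9685 genes were ranked, 98 had an r over 0.9, and the 5 most alike were Fam81a, Mlana, Mdm2, Nmt1 (r = 0.978) and Fam214a (r = 0.968). In all 5 genes first named, as in Ptpn14, Zzz3_auxin replicate 3 was the lowest of the 6 depleted libraries and still lay above both controls. Their choice by r over the same libraries favours this shared shape.

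Of 4 other known p53 targets set beside Ptpn14, Plk2, a polo-like kinase gene, ranked 8 of 9869 (r = 0.968), the antiproliferative gene Btg2 ranked 14 (r = 0.964), Ccng1, encoding cyclin G1, ranked 76 (r = 0.922) and Phlda3, an inhibitor of AKT, ranked 187 (r = 0.862). Plk2 read 83.7 and 84.5 CPM in the controls, 219, 218 and 174 CPM in Zzz3_auxin, and 179.7, 203 and 200.1 CPM in Yeats2_auxin. The other Hippo genes ranked far lower, from Tead2 at 1577 (r = 0.54) and Nf2 at 1869 (r = 0.49) through Yap1 at 4979 (r = -0.01) to Lats1 at 8308 (r = -0.57). In the wider list Wwc1 ranked 26 (r = 0.955), Fat1 298 (r = 0.816), Amotl1 450 (r = 0.769) and Ptpn21 4790 (r = 0.02). These correlations are descriptions over 8 libraries that also differ in depth and in G and C composition. The p53 targets were listed with earlier results of these data known, so their ranks are no test of p53 activity.

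**Figure D5:**
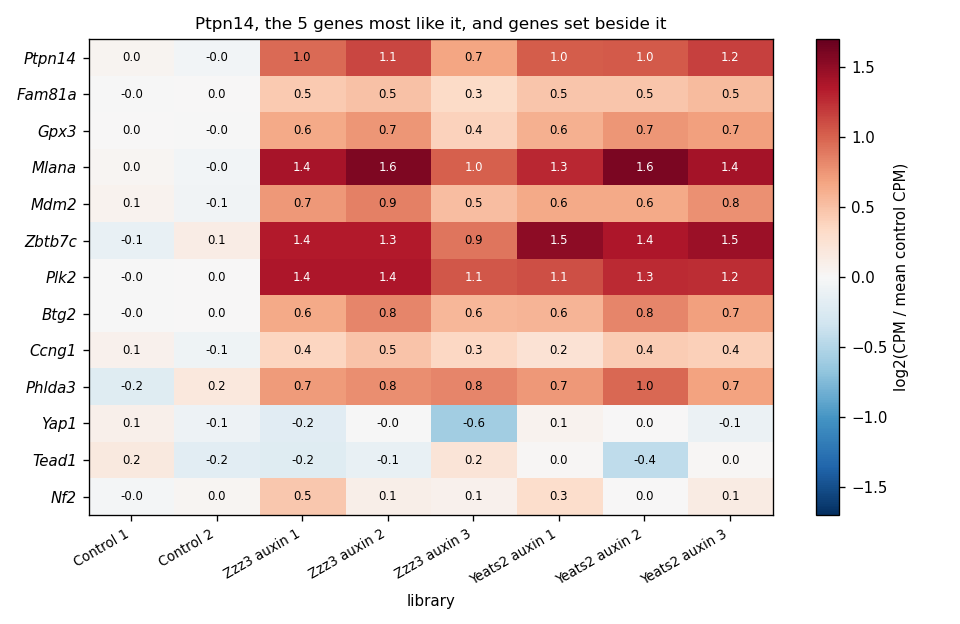
Log2 of CPM over the mean control CPM (colour and number in each cell) in each library (columns) for Ptpn14, the 5 genes most like it, 4 further p53 targets and 3 Hippo genes (rows). Ptpn14, Mdm2, Plk2 and Btg2 are above both controls in all 6 depleted libraries. The depleted libraries of Yap1 and Tead1 lie on both sides of 0, the control mean. Those of Nf2 lie above both controls in Zzz3_auxin and overlap them in Yeats2_auxin.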

How the data were processed

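Total RNA libraries (ribodepleted, stranded kit, although the labels name polyA RNA) of 2 Control, 3 Zzz3_auxin and 3 Yeats2_auxin ESC samples were analysed. The deposited values are raw counts per gene. The authors mapped reads to mm10 with STAR 2.5.3a and made these counts with HTSeq 0.6.1p1 and Ensembl 102, using unique reads. The strand setting is not given in the sources used here, so antisense reads cannot be told apart. Reads in no feature, 29.6% to 37.1% of assigned, ambiguous and featureless reads together, stayed out.

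Gene symbols, exons and coordinates came from GENCODE release M21 (GRCm38). Genes were filtered with filterByExpr, scaled by TMM and fitted in edgeR 4.0.16 (R 4.3.3, quasi-likelihood, robust, all 8 libraries). Intervals are 95%. The edgeR test was tried on simulated data, recovering 85% to 90% of 200 genes changed by a log2 fold change of 2 either way. Of its calls, 6.35% to 9.09% were false. DESeq2 recovered 81% to 88.5% on the same simulated data, with 12.8% to 13.1% of its calls false. Smaller changes and a trend with G and C content were not simulated, so recovery at the sizes seen here is not known. Genes and lists were chosen with earlier results of these data known. The text names the 10 members, every called gene of the wider list, the 2 genes of highest mean CPM in each role, and those changed by over 1 (log2). Alternatives were DESeq2 1.42.0, median-of-ratios factors, no filter, only the compared groups, a replicate block, a correction for G and C content and length, and leaving out each library, and for the likeness ranking a minimum set on the controls, added after seeing the data.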

Additional observations from a re-analysis of the deposited data

How the results depend on the processing

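The Ptpn14 difference stayed above 0 in every alternative. Ptpn14 was picked for its rise in these same libraries, so this describes the size of the rise and does not test it. Leaving out 1 library gave 0.84 to 1.06 (log2) after ZZZ3 depletion and 1.04 to 1.14 after YEATS2 depletion, and the correction for G and C content and length gave 0.78 and 0.98. The count of 0 of the 9 other genes held in all 14 alternatives and all comparisons, with Tead2 nearest (adjusted p = 0.0556 with no filter on low counts). Over all genes the calls went from 132 to between 0 and 1542 after ZZZ3 depletion and from 78 to between 0 and 553 after YEATS2 depletion. In a setting that called almost no gene, a count of 0 of the 9 was bound to follow and says little about them. A control left alone was assumed to vary like the other groups. The causes were not tested.

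In the wider list, calls after ZZZ3 depletion numbered 7 with DESeq2 (beside 5.74% of all genes), 10 with no filter (4.67%), 0 with only the compared groups (0.0%) and 0 to 5 on leaving out a library (0.0% to 4.44%). After YEATS2 depletion they numbered 3 (2.18%), 5 (1.68%), 2 (2.86%) and 0 to 1 (0.0% to 1.31%), and between depletions 1 with no filter (0.354%). Fat1 passed after ZZZ3 depletion without Zzz3_auxin replicate 2 or 3 (adjusted p = 0.0395 and 0.022) and without replicate 2 Amotl1 (0.046), Arhgef17 (0.02988) and Igfbp3 (0.0452) did.

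The numbers did not pair the libraries, as same-numbered deviations correlated between -0.34 and 0.31. With a replicate block Ptpn14 stood at 0.97 and 1.12, 0 of the 9 genes and 0 of the wider list were called, and near 0 the sign turned for Tead4 (-0.0007, ZZZ3), and for Yap1 (0.093), Lats2 (-0.040) Ppp2r1a (-0.079) and Nt5e (-0.0065) after YEATS2 depletion.

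Log2 fold changes near 0 turned sign elsewhere. With the correction for G and C content and length, Tead1 read 0.013, Tead4 -0.31 and Llgl1 -0.055 after ZZZ3 depletion. After YEATS2 depletion Yap1 read 0.066, Tead2 -0.011, Tead4 -0.054, Lats2 -0.020, Amotl2 -0.055, Ajuba -0.10, Ppp2r1a -0.11 and Dock5 -0.0068, and between depletions Wwtr1 read -0.0048. With no filter Yap1 read 0.012 after YEATS2 depletion. On leaving out a library after ZZZ3 depletion, Wwtr1 ranged from -0.017 to 0.14, Tead1 from -0.19 to 0.17, Tead4 from -0.016 to 0.15, Lats2 from -0.33 to 0.079, Ptpn21 from -0.15 to 0.12 and Stk4 from -0.0013 to 0.11. After YEATS2 depletion Yap1 ranged from -0.092 to 0.089, Tead1 from -0.28 to 0.085, Lats2 from -0.0062 to 0.18, Ptpn21 from -0.18 to 0.086, Ppp2r1a from -0.16 to 0.25 Dock5 from -0.050 to 0.067 and Nt5e from -0.079 to 0.28. Between depletions Wwtr1 ranged from -0.033 to 0.12, Tead1 from -0.17 to 0.050, Lats1 from -0.16 to 0.015, Amotl2 from -0.32 to 0.052 and Nf2 from -0.14 to 0.063.

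Shares in control depend on length. With the longest transcript Lats1 held 85.1%, Yap1 75.4%, Amotl2 87.1% and Ptpn14 66.9%. With raw reads Tead1 held 77.2%, Yap1 77.5%, Amotl2 77.4% and Ptpn14 79.2%.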
